A study of Homo sapiens with 16 samples.

Results

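The measurements described here are the read counts of 10 receptor tyrosine kinase genes in glioblastoma cells transfected with miR-137. The genes are EGFR, ERBB2, ERBB3, MET, AXL, PDGFRA, PDGFRB, KIT, FGFR1 and IGF1R. They were chosen by gene symbol and are 10 of the 20314 genes in the tables of U251 cells and of the 20626 genes in those of U343 cells. U251 and U343 are established human glioblastoma cell lines. The cells were transfected with a miR-137 mimic, a synthetic RNA that acts as the mature miRNA, or with a control mimic, each at 25 nM, and total RNA was collected after 48 hours. RNASeq measured total RNA. RIPSeq measured the RNA that co-precipitated with the poly(A)-binding protein PABP, which binds the poly(A) tail of mRNAs. The comparisons ask which receptor mRNAs changed in total RNA, and which in PABP-bound RNA, when miR-137 was added. A change in PABP-bound RNA includes any change in total level, so the changes in the assays were also compared. Each of the 4 experiments, U251 RNASeq, U251 RIPSeq, U343 RNASeq and U343 RIPSeq, had 2 control and 2 miR-137 libraries, 16 libraries in all. Ribosomal RNA was removed from every sample, and the cDNA was made with random hexamers and EpiScript for U251 and with the TotalScript kit for U343, so that cell line and library kit cannot be told apart. The labels do not say whether the libraries of a group came from separate cultures, so the p-values measure only the spread between these libraries, which may be technical. In bulk samples, fewer cells of a type and less RNA per cell cannot be told apart.

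Receptor tyrosine kinases sit in the plasma membrane, bind growth factors outside the cell and, once paired, phosphorylate each other and the adaptor proteins that dock on them. The signal passes mainly through the RAS and ERK pathway and through PI3 kinase and AKT, and is limited by Sprouty proteins, phosphatases and ubiquitin ligases such as CBL. In glioblastoma, EGFR and PDGFRA are known for amplification, and MET, AXL and FGFR1 for a role when other receptors are inhibited. A miRNA guides Argonaute proteins to mRNAs that pair with it, mostly through its seed, and lowers their translation and stability.

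The sequence of the added miRNA is shown because its seed, bases 2 to 8, sets which mRNAs it pairs with. RefSeq gives the mature form, encoded by MIR137 at chr1:98046091-98046113 on the minus strand of GRCh38.p14, as follows, 5′ to 3′, with the seed in capitals.
hsa-miR-137-3p: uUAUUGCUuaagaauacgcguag
Of the 2545 mature human entries in that table, 1, miR-137-3p itself, has this seed. Sites for it in the receptor transcripts were not analysed here.

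The libraries held 10156675 to 18224061 counted reads in U251 RNASeq, 22359794 to 30731476 in U251 RIPSeq and 37736206 to 45134766 in U343. In U251 RNASeq depth went with transfection, at 16886287 and 18224061 reads in the controls and 10260834 and 10156675 with miR-137. Some libraries stood apart from their partners. The U251 RIPSeq controls differed by a median of 0.68 on the log2 scale between the 2 libraries, against 0.06 to 0.23 in the other 7 groups, while the U251 RIPSeq miR-137 libraries were the closest pair. In U343 RNASeq, miR-137 replicate 1 did not carry the interferon response of the other miR-137 libraries. The summed level of 12 interferon-stimulated genes was 132 CPM there (CPM is the read count of a gene scaled to a common library total, with TMM factors within the experiment), against 137 and 140 CPM in its controls and 12249 CPM in miR-137 replicate 2. In the other 3 experiments both miR-137 libraries stood between 13181 and 15699 CPM and the controls between 119 and 226 CPM. Of the astroglial markers, VIM, CD44, TNC, NES, SOX2 and FABP7 were present in both lines. GFAP was at 3.28 to 32.8 CPM in U251 and 3187 to 7402 CPM in U343. S100B was low in U251, at 0.18 to 1.77 CPM, and stood at 2.19 to 10.4 CPM in U343. Of the mast cell markers, MS4A2 stayed at or under 1.77 CPM in all libraries, with its highest value in U343, and TPSAB1 was at or near 0. U343 libraries held the epithelial genes KRT5 (316 to 1406 CPM) and CDH1 (63.8 to 120.0 CPM), but EPCAM stayed at or under 0.12 CPM. Of the endothelial genes they held CDH5 and VWF (5.81 to 30.9 CPM), with PECAM1 at 0.65 to 1.48 CPM. KRT5, CDH1, CDH5 and VWF were all at or under 1.37 CPM in U251. U251 held the neuronal gene SYT1 (10.98 to 34.8 CPM), with SNAP25 at 1.63 to 8.27 CPM. Their part in the receptor values was not tested.

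Counted over the 10 receptors, as many mRNAs were called lower as higher in U251 RNASeq and more were called higher than lower in U343. Each experiment was tested with edgeR, and a gene was called at an adjusted p under 0.05. In U251 RNASeq, 3 of the 10 receptors fell, KIT, AXL and PDGFRA, where 29.0% of the 13052 genes tested were called lower. Another 3 rose, PDGFRB, FGFR1 and ERBB2, where 28.7% were called higher. The 6 of 10 called in either direction stood against 57.7% of all genes. In U251 RIPSeq 0 of 10 were called, against 0.263% of 14087 genes called lower, 0.944% higher and 1.21% in either direction. PDGFRB and IGF1R had an unadjusted p under 0.05 there, and DESeq2 also called 0 receptors. Without control replicate 1 the log2 fold changes there were 0.97 for PDGFRB, 0.61 for FGFR1 and -0.70 for IGF1R. Without control replicate 2 they were 0.80, 0.62 and -0.62. Those of ERBB3, PDGFRA, MET and AXL changed sign between these cases. In U343 RNASeq 9 receptors could be tested, since KIT did not pass the filter on low counts. EGFR and MET fell, 2 of 9, where 11.7% of 15088 genes were called lower, and PDGFRB, FGFR1 and AXL rose, 3 of 9, where 8.31% were called higher, so that 5 of 9 were called against 20.0% of all genes. In U343 RIPSeq EGFR and MET again fell, 2 of 9, against 27.8% of 14866 genes lower, and PDGFRB, FGFR1, ERBB2 and AXL rose, 4 of 9, against 28.5% higher. The 6 of 9 called in either direction stood against 56.3% of all genes. The shares called in U251 RNASeq and U343 RIPSeq were close to those of all genes. The median log2 fold change of the receptors was -0.02 in U251 RNASeq, -0.28 in U251 RIPSeq, 0.27 in U343 RNASeq and 0.09 in U343 RIPSeq, where that of all genes lay between -0.02 and 0.02. With upper-quartile scaling, 39.5% instead of 50.2% of the calls over all genes in U251 RNASeq were in the lower direction and the median of all genes moved from 0.02 to 0.16. The 6 receptor calls there held under that scaling, and IGF1R joined them (log2 fold change 0.37).

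**Figure D1:**
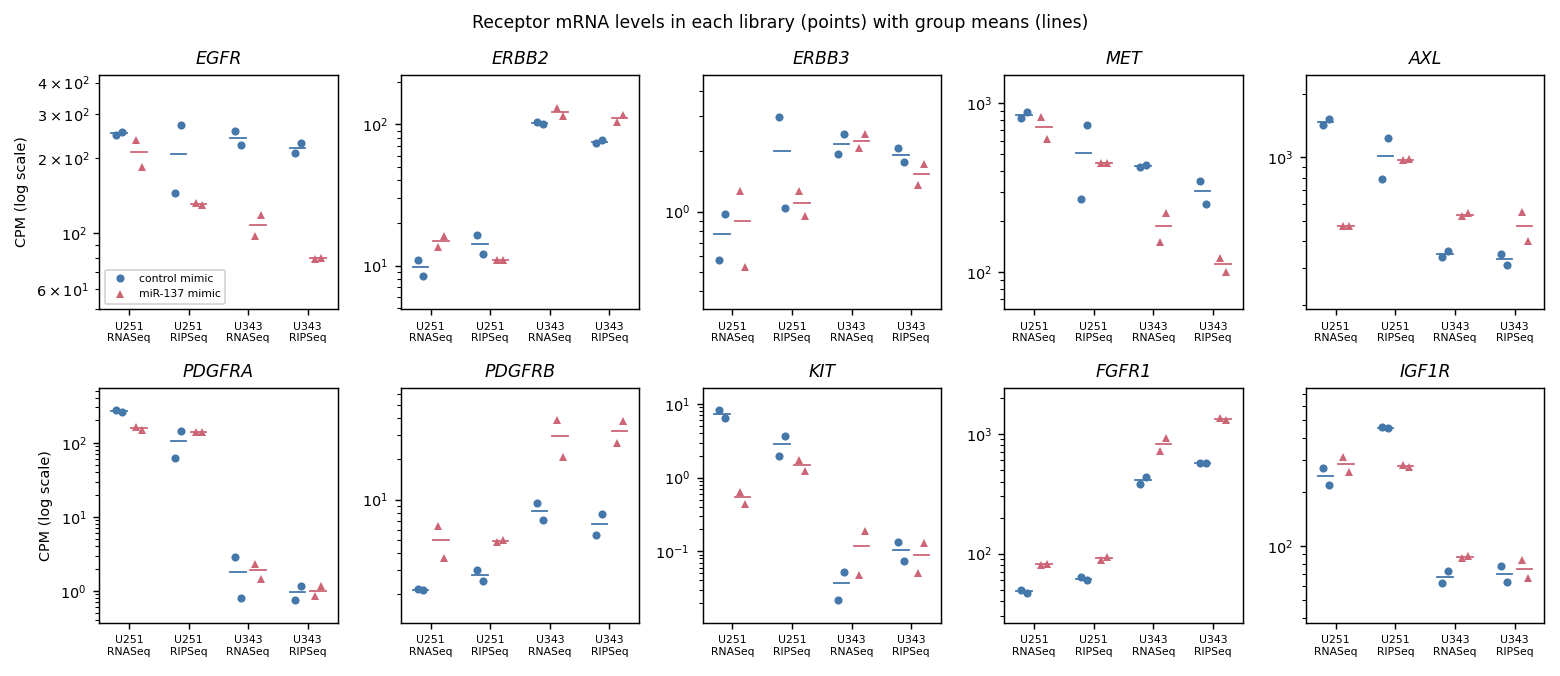
CPM of each receptor mRNA (log axis) in the 16 libraries, with control mimic as blue circles, miR-137 mimic as red triangles and group means as lines, for the 4 experiments. KIT in U251 RNASeq went from 6.55 and 8.24 CPM in the controls to 0.44 and 0.63 CPM with miR-137, and the U251 RIPSeq controls of MET, PDGFRA and EGFR lay far apart.

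**Figure D2:**
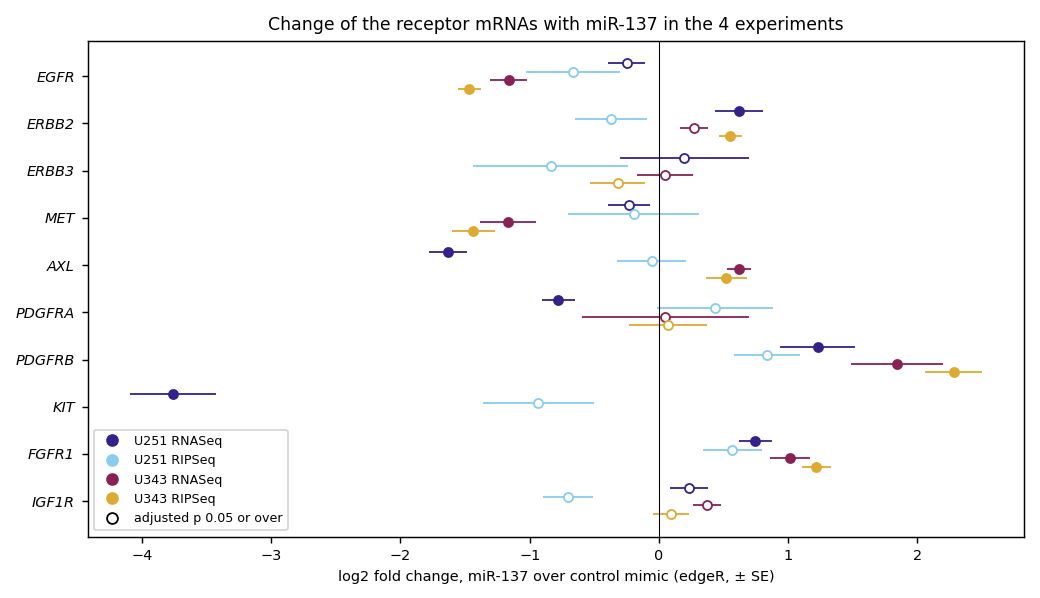
Log2 fold change of each receptor mRNA, miR-137 over control mimic, with the edgeR standard error, in the 4 experiments. Filled points had an adjusted p under 0.05 and open points did not. EGFR and MET lay near -1.2 in both U343 experiments or lower, PDGFRB and FGFR1 were above 0 in all 4 experiments, and AXL lay on opposite sides of 0 in U251 RNASeq and in U343.

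EGFR and its relatives bind the EGF and neuregulin family of ligands. EGFR (hg18 chr7:55054219-55242525, plus strand) fell in both U343 experiments and was not called in U251. In U343 RNASeq its level was 256 and 226 CPM in the controls and 97.1 and 118 CPM after miR-137 was added, so the groups did not overlap. How many of all genes had groups without overlap was not counted. Statements on overlap, here and for the other receptors, therefore only describe the libraries. The log2 fold change was -1.16 ± 0.14 (SE, adjusted p = 0.0137). In U343 RIPSeq the controls stood at 210 and 230 CPM and both miR-137 libraries at 79.3 and 79.7 CPM, and EGFR fell with a log2 fold change of -1.47 ± 0.09 (adjusted p = 1.2e-05). In U251 RNASeq the values were 248 and 253 CPM against 237 and 185 CPM, a log2 fold change of -0.25 ± 0.14 (adjusted p = 0.15), and without miR-137 replicate 1 it was -0.43 and passed the threshold (adjusted p = 0.0113). In U251 RIPSeq the controls alone spanned 145 to 270 CPM, against 132 and 129 CPM with miR-137, and the adjusted p was 0.39.

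ERBB2, the family member without a known ligand that pairs with the others, lies at hg18 chr17:35097919-35138441 on the plus strand. It rose in U343 RIPSeq from 73.6 and 77.4 CPM to 104 and 117 CPM (log2 fold change 0.55 ± 0.09, adjusted p = 0.00139). In U343 RNASeq it stood at 103 and 100.5 CPM against 131 and 114 CPM, and was not called (0.27 ± 0.11, adjusted p = 0.15). In U251 RNASeq it was less abundant and rose from 10.99 and 8.44 CPM to 13.6 and 16.2 CPM (0.62 ± 0.18, adjusted p = 0.0108). That call was lost without control replicate 2 or miR-137 replicate 2 (adjusted p = 0.096 and 0.072) and with no filter on low counts (0.069). ERBB3 (hg18 chr12:54760159-54783395, plus strand), which binds neuregulins and has little kinase activity of its own, was called in no experiment. It had 6 to 16 reads per library in U251 RNASeq and 26 to 103 in the other libraries, so only large changes could have been seen at this depth.

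Of the ligands of these receptors, HBEGF, which binds EGFR, rose in 3 experiments. It went from 3.12 and 3.04 CPM to 12.8 and 11.04 CPM in U343 RNASeq (log2 fold change 1.95 ± 0.16, adjusted p = 0.0075), by 1.81 ± 0.14 in U343 RIPSeq and by 0.64 ± 0.13 in U251 RNASeq. TGFA, another EGFR ligand, fell by 0.91 ± 0.18 in U343 RNASeq and by 0.95 ± 0.13 in U343 RIPSeq on the log2 scale, that is in the experiments where EGFR fell. The low-level EGFR ligands EREG and BTC rose in U251 RNASeq, with log2 fold changes of 2.61 ± 0.31 and 1.63 ± 0.29. In U251 RIPSeq their values were 2.54 ± 0.61 and 2.00 ± 0.69, with adjusted p of 0.13 and 0.22, and in U343 EREG was not called and BTC was too low to test. The neuregulins that bind ERBB3 went in opposite directions. NRG1 fell in U251 RNASeq from 442 and 473 CPM to 122 and 106 CPM (-2.002 ± 0.14, adjusted p = 9.2e-08), and NRG2 rose there from 5.17 and 5.08 CPM to 16.2 and 14.9 CPM (1.598 ± 0.18) and again in U343 RIPSeq (1.603 ± 0.10).

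MET, the receptor of hepatocyte growth factor, lies at hg18 chr7:116099695-116225676 on the plus strand. Like EGFR it fell in both U343 experiments. In U343 RNASeq it had 418 and 429 CPM in the controls and 150.5 and 226 CPM with miR-137 (log2 fold change -1.17 ± 0.22, adjusted p = 0.0306). In U343 RIPSeq the controls were at 350 and 253 CPM and the miR-137 libraries at 122 and 101 CPM (-1.44 ± 0.16, adjusted p = 0.00024). The groups did not overlap in either. In U251 RNASeq they did, with 818 and 887 CPM against 835 and 616 CPM (-0.23 ± 0.16, adjusted p = 0.24), and without miR-137 replicate 1 the change of -0.46 passed (adjusted p = 0.0151). The U251 RIPSeq controls, at 270 and 748 CPM, stood on either side of both miR-137 libraries (444 and 446 CPM). The direction there was set by which control was used, with a log2 fold change of -0.75 without control replicate 1 and 0.81 without control replicate 2. HGF, its ligand, was at or under 1.25 CPM in all libraries and was tested only in U343 RIPSeq, where it rose from 0.16 and 0.07 CPM to 0.82 and 1.25 CPM (adjusted p = 0.00063).

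AXL, a receptor of the TAM family that binds GAS6, lies at hg18 chr19:46416948-46459511 on the plus strand and changed in opposite directions in the 2 lines. In U251 RNASeq it fell from 1421 and 1514 CPM to 473 and 472 CPM (log2 fold change -1.64 ± 0.15, adjusted p = 8.6e-07), and the groups lay far apart. In U343 RNASeq it rose from 336 and 362 CPM to 526 and 545 CPM (0.62 ± 0.09, adjusted p = 0.0189). In U343 RIPSeq it rose from 350 and 311 CPM to 548 and 401 CPM (0.52 ± 0.16, adjusted p = 0.0228), a call that was lost without either control or without miR-137 replicate 1 (adjusted p of 0.076 to 0.16). In U251 RIPSeq the controls at 788 and 1239 CPM enclosed the miR-137 libraries at 968 and 981 CPM, and its direction changed with the control left out (-0.35 and 0.40). Its ligand GAS6 fell in 3 experiments, by 0.99 ± 0.09 in U343 RNASeq, by 1.18 ± 0.18 in U343 RIPSeq and by 0.84 ± 0.32 in U251 RNASeq on the log2 scale, so that in U343 the ligand fell while the receptor rose. GAS6 stood at 611 and 615 CPM in the U343 RNASeq controls and at 4.599 and 3.61 CPM in those of U251.

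PDGFRA, PDGFRB and KIT are related receptors with split kinase domains. PDGFRA and KIT are neighbours on chromosome 4, at hg18 chr4:54790021-54859169 and chr4:55218852-55301638, both on the plus strand, with 359682 bases between them. In U251 RNASeq both fell, by different amounts. PDGFRA went from 274 and 264 CPM to 165 and 149 CPM (log2 fold change -0.78 ± 0.13, adjusted p = 0.00019). KIT, the receptor of stem cell factor, had 129 and 107 reads in the controls and 7 and 5 reads with miR-137, which is 8.24 and 6.55 CPM against 0.63 and 0.44 CPM. Its log2 fold change of -3.76 ± 0.33 (adjusted p = 7.8e-07) was the largest in size of the receptors tested in the 4 experiments. In U251 RIPSeq neither was called. PDGFRA stood at 63.0 and 146 CPM in the controls against 142 and 141 CPM. KIT had 46 and 103 reads in the controls and 45 and 34 with miR-137 (-0.93 ± 0.43, adjusted p = 0.32). In U343 both were rare. PDGFRA had 30 to 131 reads in every U343 library, with overlapping groups and log2 fold changes of 0.05 and 0.07. KIT had 1 to 8 reads in every U343 library, too few to test. At the most, 8 of 43909827 reads, in miR-137 replicate 2 of U343 RNASeq, the exact 95% Poisson interval reached 0.36 CPM of the unscaled total. Intervals of this kind cover counting error only.

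PDGFRB (hg18 chr5:149473595-149515615, minus strand), the receptor of PDGF-BB that marks mural and mesenchymal cells, was higher with miR-137 in all 4 experiments and called in 3. In U343 RIPSeq it rose from 5.45 and 7.77 CPM to 26.1 and 37.9 CPM (log2 fold change 2.28 ± 0.22, adjusted p = 0.0001). In U343 RNASeq it rose from 9.46 and 7.05 CPM to 38.6 and 20.8 CPM (1.84 ± 0.36, adjusted p = 0.0337). In U251 RNASeq it had 34 and 35 reads in the controls and 71 and 42 with miR-137, or 2.17 and 2.14 CPM against 6.41 and 3.73 CPM (1.23 ± 0.29, adjusted p = 0.0027), and without miR-137 replicate 1 the call was lost (0.80, adjusted p = 0.066). In U251 RIPSeq the groups did not overlap either, at 3.00 and 2.51 CPM against 4.82 and 5.00 CPM, but the adjusted p was 0.18. The PDGFRB groups did not overlap in any experiment. The share of all genes without overlap was not counted, so this only describes these libraries.

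Of the ligands of these 3 receptors, PDGFA, which binds PDGFRA, rose in U251 RNASeq from 157 and 166 CPM to 416 and 429 CPM (log2 fold change 1.39 ± 0.13, adjusted p = 1.4e-06), where PDGFRA fell, and fell in U343 RIPSeq by 0.35 ± 0.10. PDGFD, a PDGFRB ligand, fell in U251 RNASeq from 157 and 159 CPM to 37.8 and 30.1 CPM (-2.22 ± 0.14, adjusted p = 4.7e-08) and was at or under 0.17 CPM in U343. PDGFB rose in U343 RNASeq by 0.46 ± 0.09 and PDGFC fell in U343 RIPSeq by 0.92 ± 0.17 on the log2 scale. KITLG, which encodes stem cell factor, fell in both RNASeq experiments, from 111 and 118 CPM to 76.6 and 67.9 CPM in U251 (-0.66 ± 0.13, adjusted p = 0.00063) and from 143 and 120 CPM to 83.9 and 92.3 CPM in U343 (-0.57 ± 0.13, adjusted p = 0.0465).

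FGFR1, a receptor of fibroblast growth factors at hg18 chr8:38387813-38445509 on the minus strand, was higher with miR-137 in all 4 experiments, with no overlap between groups in any, and was called in 3. In U343 RIPSeq it rose from 573 and 576 CPM to 1366 and 1305 CPM (log2 fold change 1.22 ± 0.11, adjusted p = 7.9e-05). In U343 RNASeq it rose from 383 and 436 CPM to 724 and 927 CPM (1.01 ± 0.16, adjusted p = 0.0209), and in U251 RNASeq from 49.9 and 47.1 CPM to 80.4 and 82.2 CPM (0.75 ± 0.13, adjusted p = 0.00022). In U251 RIPSeq it stood at 63.7 and 59.9 CPM against 89.1 and 94.3 CPM (0.57 ± 0.23, adjusted p = 0.27). Its ligand FGF1, at or under 8.54 CPM everywhere, was called higher in all 4 experiments, with log2 fold changes of 1.39 ± 0.31 in U251 RNASeq, 2.23 ± 0.27 in U251 RIPSeq, 1.79 ± 0.38 in U343 RNASeq and 1.496 ± 0.33 in U343 RIPSeq. FGF2 rose in U251 RNASeq by 0.40 ± 0.13, FGF18 rose in U343 RIPSeq by 1.48 ± 0.50, and FGF9 fell in U251 RNASeq by 1.00 ± 0.27 and in U343 RIPSeq by 0.94 ± 0.20.

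IGF1R, the receptor of insulin-like growth factors at hg18 chr15:97010284-97325282 on the plus strand, was called in none of the 4 experiments. In U251 RIPSeq it had 457 and 453 CPM in the controls and 282 and 276 CPM in the miR-137 libraries. The log2 fold change was -0.70 ± 0.19, with an adjusted p of 0.16. Its replicates were close there and the groups did not overlap. In U343 RNASeq it was at 62.5 and 72.9 CPM against 86.4 and 88.8 CPM (0.37 ± 0.11, adjusted p = 0.086), and DESeq2 called it (adjusted p = 0.0494). In U251 RNASeq the groups overlapped at 270.0 and 218 CPM against 314 and 259 CPM (0.23 ± 0.15). In U343 RIPSeq the value was 0.09 ± 0.14.

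In U343 RNASeq the 2 miR-137 libraries differed in their interferon genes, so the changes of the 5 called receptors are given for each. Without miR-137 replicate 1, the library at the control level of interferon genes, EGFR changed by -1.03 ± 0.11 and MET by -0.91 ± 0.10 on the log2 scale. PDGFRB then changed by 1.32 ± 0.18, FGFR1 by 1.17 ± 0.11 and AXL by 0.64 ± 0.10. In the opposite case, with replicate 1 as the only miR-137 library, EGFR changed by -1.31 and MET by -1.49. PDGFRB there changed by 2.22, FGFR1 by 0.82 and AXL by 0.59. Against the control mean, ERBB2 stood at 0.36 in replicate 1 and 0.17 in replicate 2, and IGF1R at 0.35 and 0.39. Between these 2 cases the values for EGFR, MET and PDGFRB were larger in size with replicate 1 and those for FGFR1 and AXL with replicate 2, with 1 library each way and no test of the difference. Without either control library, 0 genes of the whole table were called in U343 RNASeq, and the 5 receptors kept their direction with adjusted p of 0.17 to 0.27. In U251 and in U343 RIPSeq every miR-137 library had raised interferon genes. The part of that response in the receptor values was not tested in any experiment.

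The change with miR-137 was compared between the lines by the interaction of cell line and transfection. In RNASeq, 4 of 10 receptors differed, against 25.2% of 15550 genes. Of these, 2 changed more towards lower levels in U343, as did 12.7% of genes, and 2 towards higher levels, as did 12.5%. The change of EGFR was lower in U343 than in U251 by 0.92 ± 0.23 on the log2 scale (adjusted p = 0.0216) and that of MET by 0.95 ± 0.30 (adjusted p = 0.0481). The change of AXL was higher in U343 by 2.25 ± 0.15 (adjusted p = 0.00022), with a fall in U251 and a rise in U343. KIT was also called (5.37 ± 0.95, adjusted p = 0.0057), but with 3 reads in the 2 U343 controls together the size of its difference is not determined. The call of EGFR was lost when any control of either line or U251 miR-137 replicate 1 was left out, with adjusted p up to 0.0998, and that of MET when any control or either U251 miR-137 library was, with adjusted p up to 0.17. The call of MET was also lost under the replicate block (adjusted p = 0.055) and with no filter on low counts (0.051). AXL stayed called without any 1 of the 8 libraries. In RIPSeq 0 of 10 receptors differed between the lines in edgeR, against 3.28% of 15959 genes, 1.22% with a lower and 2.06% with a higher change in U343. There 4 had an unadjusted p under 0.05, ERBB2, PDGFRB, FGFR1 and IGF1R, and DESeq2 called those 4. The differences of these 4 were 0.98 ± 0.30, 1.496 ± 0.39, 0.70 ± 0.20 and 0.85 ± 0.26 in the same order. Omitting any 1 of the 8 RIPSeq libraries gave 0.71 to 1.15 for ERBB2 and 1.19 to 1.75 for PDGFRB. For FGFR1 the range was 0.53 to 0.73 and for IGF1R 0.65 to 1.00.

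Whether the change differed between PABP-bound and total RNA was tested by the interaction of assay and transfection within each line. In U251 0 of 10 receptors were called, against 0.134% of 14210 genes (0.0281% lower and 0.106% higher in RIPSeq). Of the receptors, 5 had an unadjusted p under 0.05. DESeq2 called 2, AXL and KIT, with 717 genes called in all. The values of those 5, RIPSeq minus RNASeq, were 2.79 ± 0.57 for KIT (adjusted p = 0.094), 1.54 ± 0.31 for AXL (0.088), 1.18 ± 0.48 for PDGFRA (0.24), -0.99 ± 0.28 for IGF1R (0.15) and -1.04 ± 0.35 for ERBB2 (0.19). KIT and AXL, which fell most in U251 RNASeq, thus changed less in U251 RIPSeq, by an amount that passed the threshold in DESeq2 and did not in edgeR. Omitting any 1 of the 8 U251 libraries gave differences of 2.51 to 3.39 for KIT and 1.35 to 1.97 for AXL. For PDGFRA the range was 0.79 to 1.98, for IGF1R -1.04 to -0.73 and for ERBB2 -1.18 to -0.69. In U343, 0 of 9 receptors were called, against 0.00649% of 15413 genes, 0 had an unadjusted p under 0.05 and DESeq2 called 0. The differences there lay between -0.37 and 0.44.

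The receptors also differed between the lines in the absence of miR-137. In the RNASeq controls, 9 of 10 were called between U343 and U251, where 84.8% of 14787 genes were. They were 4 higher in U343, against 44.9% of genes, and 5 lower, against 39.9%. ERBB2 was at 101 and 99.3 CPM in U343 and 10.5 and 7.99 CPM in U251 (log2 difference 3.44 ± 0.13), FGFR1 at 377 and 430.5 CPM against 47.6 and 44.6 CPM (3.13 ± 0.11), PDGFRB at 9.32 and 6.96 CPM against 2.07 and 2.03 CPM (1.99 ± 0.23) and ERBB3 at 1.92 and 2.40 CPM against 0.55 and 0.93 CPM (1.53 ± 0.33). Lower in U343 were PDGFRA, at 2.79 and 0.78 CPM against 261 and 249.7 CPM (-7.10 ± 0.35), AXL, at 331 and 358 CPM against 1355 and 1433 CPM (-2.02 ± 0.11), IGF1R (-1.80 ± 0.13) and MET (-0.95 ± 0.10). KIT was 199 times as high in U251 by summed reads, 236 against 3, with an exact 95% interval of 67.3 to 972. EGFR did not differ detectably, at 252 and 224 CPM in U343 and 237 and 239.7 CPM in U251 (log2 difference -0.0011 ± 0.096). With upper-quartile scaling or no filter its sign was the opposite. These CPM values were scaled over the 4 control libraries and differ slightly from those above.

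In the RIPSeq controls 7 of 10 receptors were called between the lines, against 35.4% of 15138 genes (16.5% lower and 19.0% higher), each in the same direction as in RNASeq. The log2 differences were 2.40 ± 0.31 for ERBB2, 3.21 ± 0.23 for FGFR1, 1.26 ± 0.34 for PDGFRB, -6.78 ± 0.65 for PDGFRA, -1.63 ± 0.31 for AXL and -2.70 ± 0.25 for IGF1R, and KIT was 27.8 times as high in U251 (95% interval 14.3 to 62.1). PDGFRB was not called with DESeq2, upper-quartile scaling or the replicate block. PDGFRB and AXL were not called without either U343 control. EGFR, ERBB3 and MET, at 0.07 ± 0.37, -0.03 ± 0.54 and -0.77 ± 0.53, were not called.

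**Figure D3:**
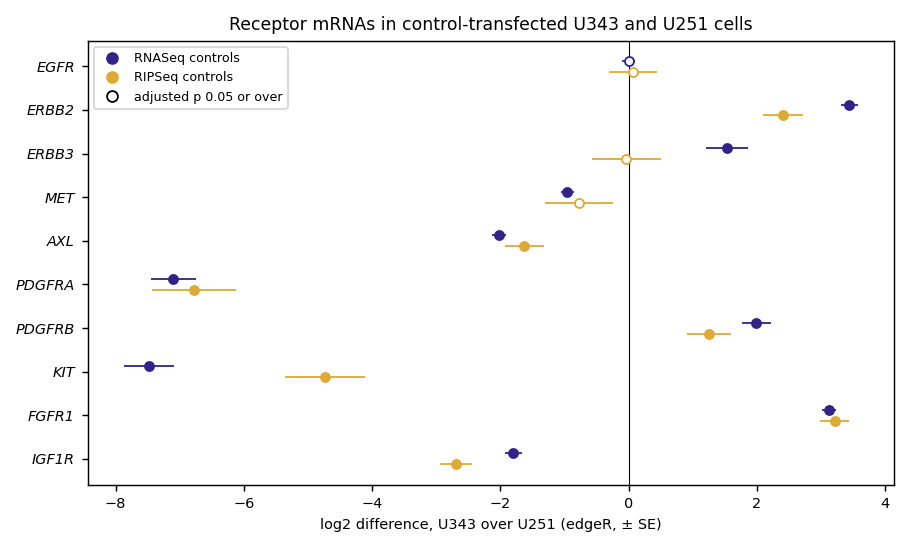
Log2 difference of each receptor mRNA between control-transfected U343 and U251 cells, with the edgeR standard error, in RNASeq and RIPSeq. ERBB2 and FGFR1 lay above 2 and PDGFRA below -6 in both assays, while EGFR lay at 0.

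The recovery of the receptor mRNAs with PABP was compared with total RNA in the controls. In U343, 2 of 9 were called, against 48.6% of 14878 genes (24.2% lower and 24.4% higher). FGFR1 was higher in PABP-bound RNA by 0.60 ± 0.09 on the log2 scale (adjusted p = 0.00128) and ERBB2 was lower by 0.32 ± 0.07 (adjusted p = 0.0086), a call that was lost without RNASeq control replicate 1 (adjusted p = 0.055). MET missed the threshold narrowly (-0.38 ± 0.14, adjusted p = 0.056) and was called with DESeq2, upper-quartile scaling and no filter. In U251, where the RIPSeq controls lay apart, 0 of 10 were called in edgeR, against 14.0% of 13242 genes (6.14% lower and 7.87% higher). PDGFRA, IGF1R and KIT had an unadjusted p under 0.05, and DESeq2 called PDGFRA and IGF1R, with 3615 genes called in all. IGF1R stood at 1.05 ± 0.31 (adjusted p = 0.064), KIT at -1.24 ± 0.39 (0.075) and PDGFRA at -1.23 ± 0.44 (0.10). With each library left out in turn, IGF1R ranged from 0.77 to 1.09, KIT from -1.80 to -0.88 and PDGFRA from -1.99 to -0.76.

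The rule of the study's methods asks more of the size of a change and compares reads of single libraries, without an estimate of replicate variation. A gene is lower when each of the 4 pairings of a control with a miR-137 library has an odds ratio above 2 in Fisher's exact test, with an adjusted p below 0.001. The mirrored rule was used for rises. In U251 RNASeq KIT and AXL met it as lower, where 2.21% of 20314 genes did, with odds ratios of 8.61 to 15.5 and 2.52 to 2.66, and 0 receptors met it as higher, where 6.14% of genes did. Over all genes 448 met it as lower and 1248 as higher, and with library totals scaled by TMM factors 793 and 793. PDGFRA, with odds ratios of 1.33 to 1.54, did not meet it. In U251 RIPSeq 0 receptors met it in either direction, where 1.49% of genes did as lower and 3.47% as higher. In U343 RNASeq PDGFRB met it as higher, where 1.51% of 20626 genes did, with odds ratios of 2.07 to 5.55. There 0 receptors met it as lower, where 2.88% of genes did, though EGFR passed in 3 of the 4 pairs and MET in 2, with lowest odds ratios of 1.98 and 1.96. In U343 RIPSeq EGFR and MET met it as lower, where 3.40% of genes did, and PDGFRB and FGFR1 as higher, where 4.83% did. The odds ratios in U343 RIPSeq were 2.54 to 2.99 for EGFR, 2.15 to 3.34 for MET, 3.26 to 7.21 for PDGFRB and 2.30 to 2.36 for FGFR1.

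The genes that work with the receptors were described by lists. Over all genes tested, 29.0% were called lower and 28.7% higher in U251 RNASeq, 0.263% and 0.944% in U251 RIPSeq, 11.7% and 8.31% in U343 RNASeq, and 27.8% and 28.5% in U343 RIPSeq. Of the other receptor tyrosine kinases, 29 of 48 were tested in U251 RNASeq, where 10 fell and 8 rose, and 37 in U343 RIPSeq, where 10 fell and 10 rose. In U343 RNASeq 3 fell and 5 rose of 39, and in U251 RIPSeq 2 fell and 0 rose of 42. The shares, 34.5% lower and 27.6% higher in U251 RNASeq and 27.0% in each direction in U343 RIPSeq, were close to those of all genes. FGFR2 and NTRK3 were the 2 that fell in U251 RIPSeq, the experiment in which none of the 10 receptors was called. FGFR2, a relative of FGFR1, went from 28.1 and 23.7 CPM to 2.44 and 2.49 CPM in U251 RNASeq (log2 fold change -3.39 ± 0.20) and from 17.7 and 23.7 CPM to 3.33 and 2.80 CPM in U251 RIPSeq (-2.75 ± 0.30, adjusted p = 0.041). NTRK3, the receptor of neurotrophin-3, fell by 2.74 ± 0.16 and 1.98 ± 0.24 in the same experiments. RYK, a Wnt co-receptor with an inactive kinase, fell in 3 experiments, by 1.57 ± 0.13 in U251 RNASeq, by 1.30 ± 0.13 in U343 RNASeq and by 1.32 ± 0.08 in U343 RIPSeq. LMTK2 fell in the same 3, by 0.85 to 1.09, and EPHA5, an ephrin receptor, in U251 RNASeq by 1.98 ± 0.14 and in U343 RIPSeq by 1.20 ± 0.11. LMTK3 rose in both U343 experiments, by 1.54 ± 0.23 and 2.41 ± 0.19.

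Adaptors and signal relays, which dock on the active receptors, changed in both directions. In U251 RNASeq 6 fell and 9 rose of 24, in U343 RNASeq 4 fell and 3 rose of 24, in U343 RIPSeq 7 fell and 9 rose of 25, and in U251 RIPSeq edgeR called 0 of 24, with 4 at an unadjusted p under 0.05 and 4 called by DESeq2. These are shares of 25.0% lower and 37.5% higher in U251 RNASeq, 16.7% and 12.5% in U343 RNASeq, and 28.0% and 36.0% in U343 RIPSeq, near those of all genes (29.0% and 28.7%, 11.7% and 8.31%, 27.8% and 28.5%). NCK2, an adaptor to the actin cytoskeleton, fell in 3 experiments, by 1.49 ± 0.14 in U251 RNASeq, by 1.22 ± 0.12 in U343 RNASeq and by 1.18 ± 0.09 in U343 RIPSeq, and CRKL fell in the same 3, by 0.45 to 0.85. PTPN11, the phosphatase SHP2 that transmits signals to RAS, fell in U251 RNASeq from 409 and 430 CPM to 129 and 104 CPM (-1.85 ± 0.15) and in U343 RIPSeq by 0.87 ± 0.10. SHC1 rose in U343 RNASeq and RIPSeq by 0.97 ± 0.17 and 1.32 ± 0.10 and fell in U251 RNASeq by 0.51 ± 0.14. GRB2, which links receptors to RAS, rose in both U343 experiments, by 1.03 ± 0.12 and 1.02 ± 0.10. SHC3 rose in U251 RNASeq and U343 RIPSeq by 0.67 ± 0.19 and 1.57 ± 0.27.

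Among the negative regulators more rose than fell in U251 RNASeq, 13 against 6 of 27 tested, and in U343 RIPSeq, 15 against 2 of 27. In U343 RNASeq 2 rose and 1 fell of 27, and in U251 RIPSeq edgeR called 0 of 27, with 9 at an unadjusted p under 0.05 and 2 called by DESeq2. The shares called lower and higher were 22.2% and 48.1% in U251 RNASeq, against 29.0% and 28.7% of all genes, 7.41% and 55.6% in U343 RIPSeq, against 27.8% and 28.5%, and 3.70% and 7.41% in U343 RNASeq, against 11.7% and 8.31%. Their median log2 fold change was 0.21 in U251 RNASeq, 0.48 in U343 RIPSeq, 0.35 in U343 RNASeq and 0.28 in U251 RIPSeq, above that of all genes, which lay between -0.02 and 0.02. Sprouty genes are themselves induced by ERK signalling and feed back on it, and they did not all change alike. SPRY4 went from 35.2 and 40.9 CPM to 165 and 162 CPM in U251 RNASeq (log2 fold change 2.10 ± 0.13, adjusted p = 4.2e-08) and rose by 1.90 ± 0.20 in U343 RIPSeq, and SPRY2 rose by 1.46 ± 0.15 and 0.70 ± 0.09 in the same experiments. DUSP6, the ERK phosphatase, rose there by 1.28 ± 0.13 and 0.61 ± 0.14, and SH2B3 by 0.83 ± 0.13 and 0.82 ± 0.09. SPRED3, a Sprouty relative at or under 6.59 CPM, rose in 3 experiments, by 2.54 ± 0.27, 1.38 ± 0.25 and 1.81 ± 0.21 in U251 RNASeq, U343 RNASeq and U343 RIPSeq. Other members of these families were picked after their values were seen. SPRY1 and SPRED2 rose in U251 RNASeq (0.94 ± 0.16 and 1.18 ± 0.14) and were not called in U343, where they stood at -0.21 ± 0.29 and -0.13 ± 0.20 in RNASeq and at -0.52 ± 0.31 and -0.21 ± 0.10 in RIPSeq. SPRY2 and SPRY4 were not called in U343 RNASeq either (0.43 ± 0.42 and 1.41 ± 0.37). DUSP4, another ERK phosphatase, rose in U251 RNASeq by 0.78 ± 0.14 and fell in U343 RIPSeq by 0.78 ± 0.08 (adjusted p = 0.00018). LRIG3 rose in both U343 experiments, by 1.24 ± 0.21 and 1.72 ± 0.09. In the other direction, the 6 negative regulators that fell in U251 RNASeq were ERBB2IP (-1.51 ± 0.15), CBLB (-0.76 ± 0.14), PTPRK (-0.70 ± 0.15), PTPN2 (-0.62 ± 0.13), PTPRJ (-0.57 ± 0.15) and LRIG1 (-0.51 ± 0.16). PTPN2 also fell in U343 RNASeq by 0.56 ± 0.10 and in U343 RIPSeq by 0.30 ± 0.09. Of the 28 ligands, 5 fell and 7 rose of 20 tested in U251 RNASeq, 0 fell and 1 rose of 21 in U251 RIPSeq, 3 fell and 3 rose of 19 in U343 RNASeq, and 5 fell and 5 rose of 20 in U343 RIPSeq. The ligand shares called lower and higher, 25.0% and 35.0% in U251 RNASeq, 0% and 4.76% in U251 RIPSeq, 15.8% and 15.8% in U343 RNASeq and 25.0% and 25.0% in U343 RIPSeq, stood against 29.0% and 28.7%, 0.263% and 0.944%, 11.7% and 8.31%, and 27.8% and 28.5% of all genes. The 12 interferon-stimulated genes, listed for comparison, rose in 12 of 12 cases in both U251 experiments and in 11 of 12 in U343 RIPSeq, with median log2 fold changes of 6.51, 7.22 and 7.12. In U343 RNASeq edgeR called 0 of the 12, with 6 at an unadjusted p under 0.05 and 9 called by DESeq2.

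**Figure D4:**
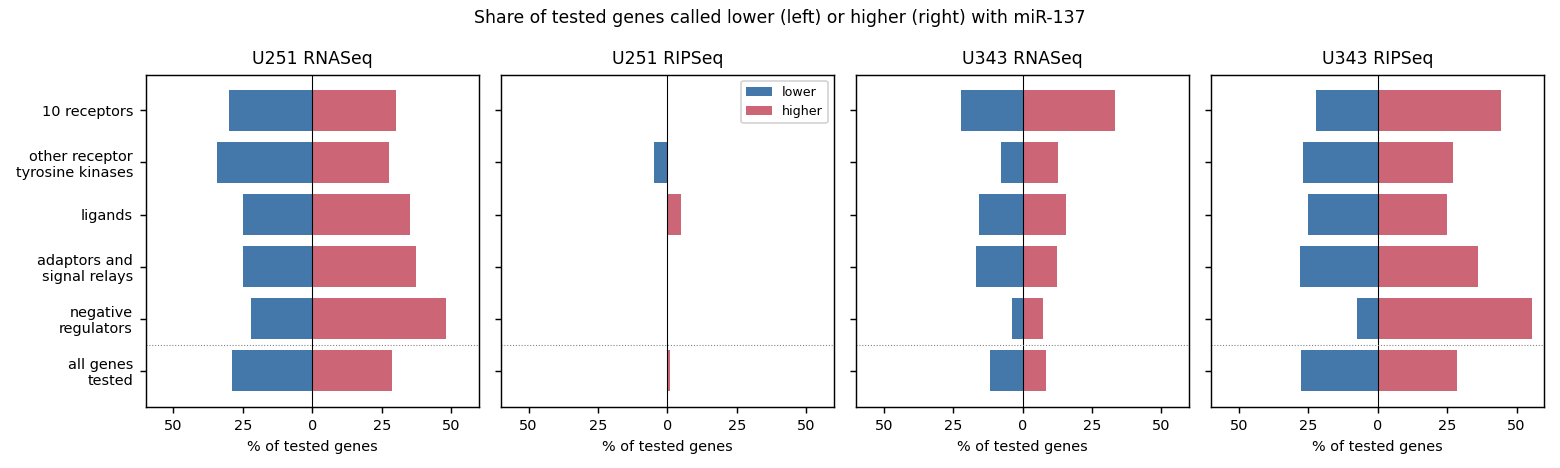
Percent of tested genes called lower (blue, to the left) or higher (red, to the right) with miR-137 in each list and over all genes tested, for the 4 experiments. Among the negative regulators 13 of 27 in U251 RNASeq and 15 of 27 in U343 RIPSeq were called higher, where 28.7% and 28.5% of all genes were.

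The genes whose pattern over the 8 U251 libraries was most like that of KIT, by Pearson's correlation of log2 CPM with 14210 genes considered, were PRKCH (r = 0.989), DIO2 (0.984) and TRAM2 (0.983). The libraries share their depth and the groups, and the correlation is a description. PRKCH had 428 and 423 reads in the U251 RNASeq controls, 168 and 172 with miR-137, 401 and 602 in the RIPSeq controls and 446 and 461 with miR-137. KIT did not pass the filter on low counts in U343, so no such genes were sought there.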

How the data were processed

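The authors depleted ribosomal RNA, sequenced the libraries on an Illumina GAIIx, used RMAP for alignment against hg18, and counted reads on 1 merged transcript for each RefSeq gene. The deposited unit is the count of reads per gene, with no normalization. The paper's methods mention an additional U251 replicate, which was not analysed here. How reads mapping to several places were counted is not given in the sources used here. The U251 tables list 1 symbol on 2 lines, of which the first was kept, and their strand column was not used. Groups came from the sample labels.

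CPM was computed within each experiment with TMM factors. Levels were compared only within a gene, since transcript lengths were not used. Tests were edgeR 4.0.16 (quasi-likelihood F test, TMM, filterByExpr, R 4.3.3), two-sided, with Benjamini-Hochberg adjustment over all genes tested and a threshold of 0.05. The standard error is the absolute log2 fold change over the square root of F. Interactions were fitted over 8 libraries. For the study's rule, the side of Fisher's test is not given in the methods, and the two-sided test (scipy 1.17.1) was used. Alternatives were DESeq2 1.42.0, upper-quartile scaling, no filter beyond 1 read, a replicate block and each library left out, and for the rule an odds ratio over 1.5 and TMM-scaled totals. With 3 libraries, the lone library was assumed to vary like the others. Intervals are exact (Clopper-Pearson for ratios, Poisson for counts, 95%). The fits and the rule were tested on simulated data. For a simulated log2 change of 2 in genes with a mean of at least 50 reads, edgeR recovered 200 of 200 genes in U251 RNASeq. It recovered 128 in U251 RIPSeq, 193 in U343 RNASeq and 200 in U343 RIPSeq. Unchanged genes called were 4, 8, 27 and 12 in the same order. Recovery of smaller changes or of genes with fewer reads was not simulated. Each gene was simulated with the same spread in both groups. In the data, the median log2 difference between replicates was 0.68 in the controls and 0.06 with miR-137 in U251 RIPSeq. In U343 RNASeq it was 0.10 and 0.23, so the recovery in these experiments may differ from that simulated. The rule was simulated with Poisson counting error only.

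The 10 receptors were named by symbol. They, the lists and the alternatives were chosen with earlier results of these data known. From each list, up to 6 genes were named that were called in the same direction in at least 2 experiments, with a mean of at least 50 reads in the higher group, by the summed size of their changes. The negative regulators that fell in U251 RNASeq were named besides. Ligands called in any experiment were named with their receptor. DDR1, AREG and SPRY3 in both lines, and PDGFC in U251, were not analysed here.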

Additional observations from a re-analysis of the deposited data

Results flagged for a closer look

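The change with miR-137 in RNASeq differed between the cell lines for 4 receptors by the interaction of cell line and transfection. The log2 fold change in U343 minus that in U251 was -0.92 for EGFR, -0.95 for MET, 2.25 for AXL and 5.37 for KIT, with adjusted p of 0.0216, 0.0481, 0.00022 and 0.0057 in edgeR. For AXL both miR-137 libraries lay below both controls in U251 and above them in U343. The value for KIT rests on 3 reads in the U343 controls. Cell line and library kit cannot be told apart in these differences. With 2 libraries per group, no test for a single outlying library was made.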

How the results depend on the processing

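Of the 17 receptor calls with miR-137 in the 4 experiments, 9 held under all 8 alternatives run for each (DESeq2, upper-quartile scaling, no filter, the replicate block and each of the 4 libraries left out), 8 were lost under at least 1, and 0 changed sign. The replicate numbers gave same-numbered libraries correlations of 0.052, -0.099, 0.13 and 0.42 in U251 RNASeq, U251 RIPSeq, U343 RNASeq and U343 RIPSeq, and the labels do not say what the numbers share. In U343 RIPSeq, where same-numbered libraries deviated together, 9645 genes were called with the block and 8364 without. With 2 pairs per experiment this was not taken to pair the libraries. With the replicate block the receptor calls in these 4 experiments stayed at 6, 0, 5 and 6. In the paired fit the genes called went to 802 in U251 RIPSeq (170 without the block), to 140 for the cell line interaction in RIPSeq (524), to 4036 for PABP-bound against total RNA in U251 (1855, with 3 receptors instead of 0), and to 0 for the assay interaction in U251 (19) and 0 in U343 (1), and ERBB3 between the lines in RIPSeq became 0.10. DESeq2 called 1123 genes in U251 RIPSeq, 717 and 399 in the assay interactions of U251 and U343, 1860 in the cell line interaction in RIPSeq and 3615 for PABP-bound against total RNA in U251, with 0, 2, 0, 4 and 2 receptors. With no filter beyond 1 read the genes called were 59 in U251 RIPSeq, 32 and 2 in the assay interactions and 100 for PABP-bound against total RNA in U251, and with upper-quartile scaling 9 in the assay interaction of U251. Between the lines, EGFR changed sign to 0.10 (upper-quartile) and 0.054 (no filter) in RNASeq and to -0.036 (DESeq2) in RIPSeq, and ERBB3 to 0.17 (no filter) in RIPSeq. With an odds ratio over 1.5, 3396, 2115, 2053 and 3437 genes met the study's rule in U251 RNASeq, U251 RIPSeq, U343 RNASeq and U343 RIPSeq, with 4 receptors in U343 RNASeq.

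When single libraries were omitted, the number of genes called ranged from 141 to 11670 in U251 RIPSeq, with 0 to 8 receptors, and from 0 to 6146 in U343 RNASeq, with 0 to 6. They ranged from 0 to 8869 (0 to 7 receptors) and from 0 to 3113 (0 receptors) in the assay interactions of U251 and U343, from 1877 to 5676 (2 to 5) and from 2 to 9113 (0 to 8) in the cell line interactions of RNASeq and RIPSeq, from 227 to 11168 (0 to 9) for PABP-bound against total RNA in U251, and from 2262 to 12150 between the lines in RIPSeq. Receptors called for PABP-bound against total RNA in U343 ranged from 1 to 3. The high ends in U251 RIPSeq came without a control library, where the spread was estimated from the 2 closest libraries alone, and the low end in U343 RNASeq came without a control, where it was estimated from the 2 miR-137 libraries that stood apart. Genes meeting the study's rule ranged from 1117 to 3671 in U251 RIPSeq (0 to 2 receptors) and from 1094 to 1765 in U343 RNASeq (1 to 3). Values that changed sign were not called in the full comparison. With miR-137 they ranged, for ERBB3, from -0.53 to 0.69 in U251 RNASeq, from -1.32 to 0.089 in U251 RIPSeq and from -0.097 to 0.21 in U343 RNASeq, for PDGFRA from -0.052 to 1.26, -0.58 to 1.26 and -0.23 to 0.41 in U251 RIPSeq, U343 RNASeq and U343 RIPSeq, for MET from -0.75 to 0.81 and for AXL from -0.35 to 0.40 in U251 RIPSeq, and for IGF1R from -0.090 to 0.24 in U343 RIPSeq. Between the lines they ranged, for EGFR, from -0.083 to 0.096 in RNASeq and from -0.33 to 0.58 in RIPSeq, and in RIPSeq from -0.64 to 0.86 for ERBB3 and from -1.34 to 0.14 for MET. Depth left the change of KIT with miR-137 in U343, at 1 to 8 reads per library, untested.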
